A study of Mus musculus with 12 samples.

Results

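The SOCS, Pim and STAT5 cytokine response genes described here are 10 genes, chosen by symbol: the ligand Osm, the transcription factors Stat3, Stat5a and Stat5b, the inhibitors Socs1, Socs2, Socs3 and Cish, and the kinases Pim1 and Pim2. All 10 were among the 35976 gene symbols of each library, and all 10 passed the filter on low counts in every comparison. The study asked what CD38, an enzyme that consumes NAD, does in mouse haematopoietic stem cells at rest, under cytokine stimulation and with age. Stem and progenitor cells were sorted as lineage-negative, c-Kit-positive and Sca-1-positive, and RNA was read as 3′ tags, which count the ends of polyadenylated transcripts.

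There were 6 groups of 2 libraries: Cd38 knockout (KO) and wild-type (WT) cells from 2-month-old mice after 24 hours of stimulation in culture, KO and WT cells from 24-month-old mice without culture, and KO and WT cells from 2-month-old mice without culture. The last 4 groups are called fresh. The labels name the treatment as cytokine stimulation without naming the cytokines, and they do not say whether the libraries of a group came from separate mice. The p-values therefore measure only the spread between these libraries, which may be technical. WT libraries are numbered 1 and 2 and KO libraries 3 and 4 in every state.

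Totals ran between 2692245 and 3249721 counts in young stimulated libraries, between 3796591 and 5164720 in old fresh ones and between 1600155 and 1963635 in young fresh ones. Depth thus moved with age. Genes with a count numbered 13163 to 13450 in stimulated libraries, 9548 to 10231 in old fresh ones and 9116 to 9993 in young fresh ones. Replicates correlated at r = 0.954 and 0.959 in the stimulated groups (over genes on the log2 scale, with genes not counting as replicates), and between 0.704 and 0.746 in the fresh groups. Young fresh WT replicate 1 had 0 Xist counts and 200 CPM (tag counts scaled to the library size) of Y-linked transcripts, whereas Xist was between 198 and 745 CPM in the other libraries. Y-linked transcripts were at 6.62 and 2.32 CPM in stimulated KO replicates 3 and 4, and at most 0.660 CPM in the rest. Cd38 tags were counted in all 12 libraries, with 3.59 and 2.32 CPM in stimulated KO libraries against 0.998 and 8.58 CPM in stimulated WT ones, 13.2 and 19.9 CPM in old fresh KO libraries against 74.4 and 41.4 CPM in old fresh WT ones, and 62.8 and 31.9 CPM in young fresh KO libraries against 17.6 and 24.6 CPM in young fresh WT ones. KO was thus below WT without overlap in old fresh cells and above it in young fresh cells. The tag may lie outside the deleted part, so these values do not check the genotype labels. The 10 markers of stem and progenitor cells were detected in every group, summing to between 1640 and 2511 CPM. Of the T and NK cell markers Cd3e was at 0 in every group, and the 5 measured members summed to between 113 and 231 CPM in stimulated libraries, between 19.4 and 123 CPM in old fresh ones and between 14.3 and 34.7 CPM in young fresh ones.

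As background, cytokines such as interleukin-3, G-CSF and the interleukin-6 family bind receptors that carry JAK kinases, and these phosphorylate STAT transcription factors. STAT dimers enter the nucleus and switch on a set of early genes, which include the SOCS genes and the Pim kinases. SOCS proteins bind back to receptors and JAKs and damp the signal, whereas Pim kinases promote survival and growth of blood cells. STAT5 is known to maintain haematopoietic stem cells.

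Promoters of Cish and Socs3 are shown because, of the member promoters searched, only theirs held the palindrome TTCNNNGAA. It is the core of the DNA element that STAT dimers recognise. Each runs from 250 bases before to 50 bases after an annotated start, taken from RefSeq on GRCm38.p6, the assembly also called mm10, 5′ to 3′ on the gene's strand. Capitals mark each match. The promoter set held 11 promoters of 8 of the 10 genes. Socs2 and Osm had no promoter in it and were not searched.
Cish promoter, chr9:107296409-107296708, plus strand: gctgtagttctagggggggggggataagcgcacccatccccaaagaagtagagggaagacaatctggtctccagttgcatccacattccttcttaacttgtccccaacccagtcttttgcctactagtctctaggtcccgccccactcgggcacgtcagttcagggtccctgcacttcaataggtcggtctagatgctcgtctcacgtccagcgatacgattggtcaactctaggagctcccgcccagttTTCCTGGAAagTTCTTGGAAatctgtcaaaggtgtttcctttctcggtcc
Socs3 promoter, chr11:117969317-117969616, minus strand: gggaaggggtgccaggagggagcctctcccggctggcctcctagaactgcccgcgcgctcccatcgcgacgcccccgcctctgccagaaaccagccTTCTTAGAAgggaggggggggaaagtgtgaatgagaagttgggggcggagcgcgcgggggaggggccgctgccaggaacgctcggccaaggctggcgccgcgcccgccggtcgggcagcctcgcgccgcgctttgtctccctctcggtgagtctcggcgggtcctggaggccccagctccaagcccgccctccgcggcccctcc
The Cish window held 2 matches, TTCCTGGAA beginning at base 1 of the annotated transcript and TTCTTGGAA beginning at base 12. The Socs3 window held 1, TTCTTAGAA, beginning at base -154 relative to the start. That window lies inside the Socs3 gene span, whose 5′ end is at 117970336 in RefSeq and 117970047 in GENCODE M21. The start used for Socs3 is thus downstream of both. For Cish, GENCODE M21 begins the gene further upstream, at 107296026. Only the gene's strand was searched, and since the palindrome reads alike on both strands, the other strand holds the same matches. It occurred in 2726 of 32851 promoters (8.30%), and 2 or more matches occurred in 150 (0.457%). The same palindrome with 4 central bases in place of 3 occurred in 2284 promoters (6.95%) and in none of the members' windows. A match is a description of the letters and not evidence of binding.

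**Figure D1:**
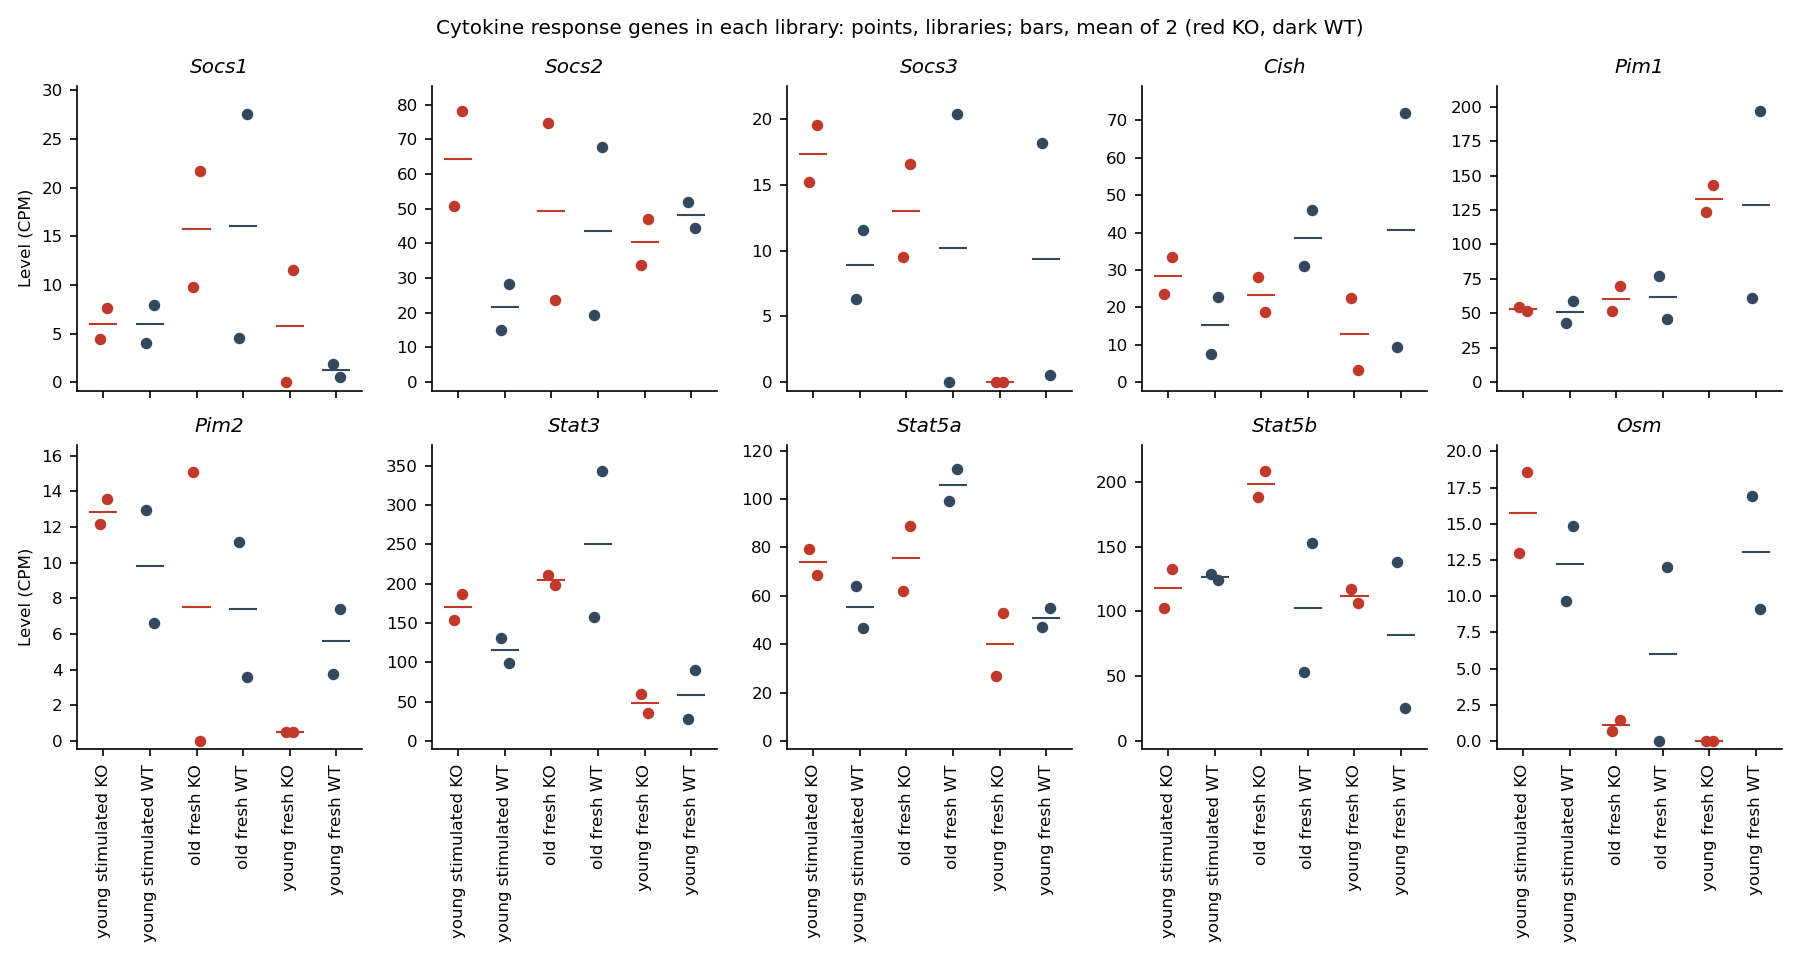
CPM of the 10 genes in each library, by group, with points for libraries and bars for the mean of 2 (KO red, WT dark). Stat3 sat between 158 and 343 CPM in old fresh libraries, above the young fresh ones at 28.2 to 89.7 CPM, and Socs2 was higher in both stimulated KO libraries than in both stimulated WT ones.

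Osm encodes oncostatin M, a ligand of the interleukin-6 family that signals through the gp130 receptor. It had 13 and 18.5 CPM in stimulated KO libraries, against 9.65 and 14.9 CPM in stimulated WT libraries. Old fresh cells had 0.695 and 1.45 CPM in KO libraries, against 0 and 12 CPM in WT libraries. Young fresh libraries split by genotype: Osm was not counted in either KO library, against 16.9 and 9.14 CPM in WT libraries. That is 0 against 43 counts over the groups, at least 16.6-fold lower in KO when 3 counts over the group are taken as the floor, which covers counting error only. EdgeR's quasi-likelihood test gave it an adjusted p = 0.961 in fresh young cells, so this split did not pass the test.

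Stat3 transmits signals of the interleukin-6 family and of G-CSF. Its RefSeq gene spans chromosome 11, 100886806 to 100939594, on the minus strand of GRCm38. It had 211 and 199 CPM in old fresh KO libraries and 158 and 343 CPM in old fresh WT libraries, against 60.2 and 35.6 CPM in young fresh KO libraries and 28.2 and 89.7 CPM in young fresh WT libraries. All 4 old libraries lay above all 4 young ones. The old cells averaged 227 ± 80.2 CPM and the young cells 53.4 ± 27.8 CPM (SD, n = 4 each). The log2 fold change was 2.08 ± 0.42 (SE), a 4.23-fold rise with an adjusted p = 0.00815 by edgeR's quasi-likelihood test. It was 2.10 within KO (adjusted p = 0.139) and 2.07 within WT (adjusted p = 0.151) as separate contrasts of the same fit. Limma voom with a weight per group, on all 12 libraries, gave 2.13 with an adjusted p = 0.0487, just inside the threshold of 0.05.

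Without each of the 8 fresh libraries in turn, the log2 fold change of Stat3 lay between 1.75 and 2.61. Without young fresh WT replicate 1 it was 1.78. Each such fit left 1 library in a group, which loosened the filter, so between 11644 and 11973 genes were tested in place of 10680. Adjusted p-values of these fits are not like for like with the full fit and are left out here. Old and young libraries also differed in depth, and neutrophil markers summed to between 366 and 3191 CPM in old libraries, against between 5060 and 9643 CPM in young ones, with 4 of 9 tested members lower. Lcn2 was at 0 in both old groups. Megakaryocyte markers summed to between 358 and 2382 CPM in old libraries, against between 274 and 593 CPM in young ones, with 1 of 6 tested members higher. Erythroid markers summed to between 229 and 754 CPM in old libraries, against between 211 and 306 CPM in young ones, with 1 of 5 higher. Of the T and NK cell markers 1 of 2 tested was higher, and of the stem and progenitor markers 2 of 10 were lower. The part of these transcripts in the Stat3 value was not tested, and depth and age cannot be told apart here. In bulk RNA, fewer cells of a type and less RNA per cell cannot be told apart either.

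In stimulated cells Stat3 had 154 and 187 CPM in KO libraries, against 131 and 99.0 CPM in WT libraries, with no overlap. The log2 difference was 0.59 ± 0.18 (SE), and the adjusted p = 0.159 did not pass (edgeR). It was 0.81 without stimulated WT replicate 1, but 0.40 without WT replicate 2 and 0.44 without KO replicate 4. Against young fresh cells of both genotypes, the stimulated libraries lay higher without overlap, with 143 ± 37.1 CPM against 53.4 ± 27.8 CPM (SD, n = 4 each). The log2 fold change of 1.40 ± 0.37 (SE) had an adjusted p = 0.0556 by edgeR, just outside the threshold of 0.05. The median of all tested genes was 0.27 in the same comparison, and with library totals alone as the scale the values were 1.54 for Stat3 (adjusted p = 0.0336) and 0.41 for the median. Stat3 was at 1.10 without young fresh WT replicate 1, 1.94 without young fresh WT replicate 2 and 1.50 without stimulated WT replicate 2. Mast cell and basophil markers summed to between 129 and 269 CPM in stimulated libraries, against between 6.12 and 37.7 CPM in young fresh ones, with 1 of 6 tested members higher. Neutrophil markers summed to between 1621 and 2894 CPM in stimulated libraries, against between 5060 and 9643 CPM in young fresh ones, with 2 of 9 tested members higher and 4 lower. Monocyte and macrophage markers summed to between 304 and 418 CPM in stimulated libraries, against between 40.8 and 171 CPM in young fresh ones, with 1 of 7 higher. Stem and progenitor markers summed to between 1680 and 1777 CPM in stimulated libraries, against between 2226 and 2511 CPM in young fresh ones, with 2 of 10 lower. The T and NK cell sums are given above, and 0 of 2 tested members passed. The part of these lists was not tested.

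Stat5a and Stat5b encode the close pair of factors that carry interleukin-3 and growth hormone signals. Stat5a had 79.2 and 68.6 CPM in stimulated KO libraries, against 64.2 and 46.9 CPM in stimulated WT libraries. The KO libraries lay above the WT ones, but the log2 difference of 0.44 ± 0.21 (SE) did not pass (adjusted p = 0.493, edgeR). Among old fresh cells Stat5a had 62.1 and 89.0 CPM in KO libraries, against 99.1 and 112 CPM in WT libraries, the opposite order. Across ages it lay higher in all 4 old fresh libraries (62.1 to 112 CPM) than in all 4 young ones (27.0 to 54.8 CPM), at 0.98 ± 0.53 (log2, SE), with an adjusted p = 0.458. Stat5b had 188 and 209 CPM in old fresh KO libraries, against 53.1 and 153 CPM in old fresh WT libraries, without overlap. Its log2 difference of 0.96 ± 0.67 (SE) had an adjusted p of 1 by edgeR. Stimulated cells had 103 and 133 CPM of Stat5b in KO libraries, against 129 and 124 CPM in WT libraries, and the KO values enclosed the WT ones. Young fresh cells had 117 and 107 CPM in KO libraries, against 138 and 25.7 CPM in WT libraries, where WT replicate 2 was the low one. Stat5a in young fresh cells had 27.0 and 52.9 CPM in KO libraries, against 47.0 and 54.8 CPM in WT libraries, which overlapped.

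Stat5a lies on chromosome 11 beside Stat5b and Stat3. Stat3 and Stat5a converge, and their GENCODE M21 ends overlap by 72 bases on opposite strands, whereas the RefSeq ends do not meet. The strand setting of the counting is not given in the sources used here, so reads in that stretch cannot be assigned between the 2 genes with certainty. No 30-base word was shared between any 2 members within the last 500 bases of their transcripts, read from GENCODE M21.

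Socs2 encodes an inhibitor that damps growth hormone and STAT5 signals, and spans chromosome 10, 95383903 to 95417321, on the minus strand (RefSeq, GRCm38). It had 50.8 and 78.2 CPM in stimulated KO libraries, against 15 and 28.4 CPM in stimulated WT libraries. Both KO libraries lay above both WT libraries. Means were 64.5 ± 19.4 CPM in KO cells and 21.7 ± 9.49 CPM in WT cells (SD, n = 2 each), a log2 fold change of 1.59 ± 0.31 (SE), 3.01-fold higher, with an adjusted p = 0.0207 by edgeR's quasi-likelihood test on the 4 stimulated libraries. The fit of all 12 libraries, whose fresh groups vary more, gave 1.57 ± 0.84 (SE) with an adjusted p of 1. A weight per group in limma voom gave 1.57 with an adjusted p = 0.0195.

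Socs2 was at 1.88 without KO replicate 3, 1.24 without KO replicate 4, 1.20 without WT replicate 1 and 2.13 without WT replicate 2. The call was lost without either KO library and held without either WT one. These fits tested between 11009 and 11111 genes in place of 10494, so they are not like for like with the full fit. With 1 library left in a group, its spread was taken to be that of the other group. Megakaryocyte markers summed to between 460 and 521 CPM in stimulated KO libraries, against between 147 and 258 CPM in WT ones, with 2 of 5 tested members higher. B cell markers summed to between 21.0 and 31.5 CPM in KO libraries, against between 46.6 and 180 CPM in WT ones, with 2 of 3 tested members lower and Cd79a and Ms4a1 at 0 in both groups. Stem and progenitor markers summed to between 1757 and 1777 CPM in KO libraries, against between 1680 and 1693 CPM in WT ones. Of their 10 tested members 1 was higher and 1 lower. Mast cell and basophil sums were lower in KO libraries, at 129 to 197 CPM against 236 to 269 CPM in WT ones. Neutrophil sums were 1621 to 2284 CPM against 2591 to 2894 CPM, and erythroid sums 171 to 271 CPM against 304 to 391 CPM. No tested mast cell, neutrophil or erythroid member passed. Monocyte sums and T and NK cell sums overlapped. The part of these markers in the Socs2 value was not tested.

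In young fresh cells Socs2 had 33.7 and 47.1 CPM in KO libraries, against 52.1 and 44.6 CPM in WT libraries, and in old fresh cells 74.9 and 23.8 CPM in KO libraries, against 19.4 and 67.8 CPM in WT libraries. Neither pair of groups separated. The KO difference in stimulated cells exceeded that in fresh young cells by 1.83 ± 1.17 (log2, SE) in the test of the difference, with an adjusted p = 0.903.

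Cish encodes CIS, a SOCS family member induced by STAT5. It had 23.5 and 33.4 CPM in stimulated KO libraries, against 7.65 and 22.8 CPM in stimulated WT libraries. All KO values lay above the WT values, although KO replicate 3 and WT replicate 2 were nearly level. The log2 difference was 0.92 ± 0.42 (SE), with an adjusted p = 0.425, and it depended on single libraries. It was 1.91 (adjusted p = 0.0189, edgeR) without WT replicate 2, 0.34 (adjusted p = 0.863) without WT replicate 1 and 0.64 (adjusted p = 0.903) without KO replicate 4. In young fresh cells Cish ranged widely, with 22.5 and 3.14 CPM in KO libraries, against 9.41 and 72.0 CPM in WT libraries. Among old fresh libraries it had 28 and 18.8 CPM in KO libraries, against 31.1 and 45.9 CPM in WT libraries, where the KO libraries lay below.

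Socs3 encodes the inhibitor of interleukin-6 family and G-CSF signalling. It had 15.2 and 19.5 CPM in stimulated KO libraries, against 6.32 and 11.6 CPM in stimulated WT libraries. The groups did not overlap, and the log2 difference of 0.97 ± 0.43 (SE) had an adjusted p = 0.41 (edgeR). In young fresh cells it was at 0 in both KO libraries, against 18.2 and 0.571 CPM in WT libraries. That is 0 against 30 counts, at least 11.6-fold lower in KO, which covers counting error only. Of the 30 counts 29 came from WT replicate 1, the library with 200 CPM of Y-linked transcripts. The difference did not pass the test (adjusted p = 0.961, edgeR). Old fresh cells had 9.50 and 16.6 CPM in KO libraries, against 0 and 20.4 CPM in WT libraries, so the WT libraries spanned the KO ones.

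Socs1, an inhibitor of interferon and interleukin signals, had 4.42 and 7.62 CPM in stimulated KO libraries, against 3.99 and 7.92 CPM in stimulated WT libraries, nearly level. Old fresh cells had 9.73 and 21.7 CPM in KO libraries, against 4.52 and 27.6 CPM in WT libraries. Young fresh cells had 0 and 11.5 CPM in KO libraries, against 1.88 and 0.571 CPM in WT libraries. These last values rest on 22 counts in KO and 4 in WT, so Socs1 could not be compared closely from these counts.

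Pim1 encodes a survival kinase that STAT signals induce. It had 54.4 and 51.3 CPM in stimulated KO libraries and 42.6 and 58.8 CPM in stimulated WT libraries, against 124 and 143 CPM in young fresh KO libraries and 60.8 and 197 CPM in young fresh WT libraries. All 4 stimulated libraries lay below all 4 fresh ones, the nearest pair being 58.8 CPM in stimulated WT replicate 2 and 60.8 CPM in fresh WT replicate 1. The log2 fold change was -1.34 ± 0.40 (SE), with an adjusted p = 0.102 (edgeR). DESeq2 gave -1.40 (adjusted p = 0.0205) and voom with a weight per group -1.25 (adjusted p = 0.0252). Without young fresh WT replicate 1 it was -1.64, and without young fresh WT replicate 2 it was -0.79.

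In old fresh cells Pim1 had 51.7 and 69.7 CPM in KO libraries, against 77.3 and 45.6 CPM in WT libraries, so the genotypes overlapped. Old against young, the log2 difference was -1.11 ± 0.46 (SE), with an adjusted p = 0.294 (edgeR), and it was -0.57 without young fresh WT replicate 2. Pim2, its X-linked relative with the same survival role, had 12.1 and 13.6 CPM in stimulated KO libraries, against 13 and 6.60 CPM in WT libraries. In young fresh cells Pim2 was counted 2 times in KO libraries, against 19 in WT libraries, a ratio of 0.0910 (95% exact interval 0.0103 to 0.377, counting error only). The Pim2 groups did not overlap, its adjusted p was 1 by edgeR, and WT replicate 1 carries the 200 CPM of Y-linked transcripts described above. Among old fresh libraries Pim2 had 15.1 and 0 CPM in KO libraries, against 11.2 and 3.60 CPM in WT libraries.

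**Figure D2:**
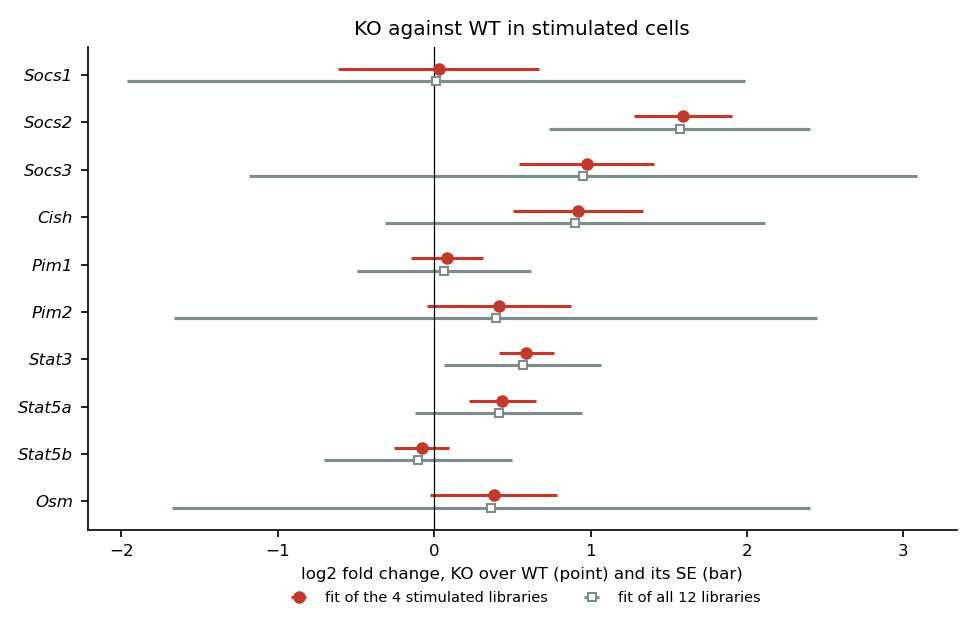
Log2 fold change of KO over WT in stimulated cells for each member, with SE bars, from the 4 stimulated libraries (circles) and from all 12 libraries (squares). Socs2 sits at 1.59 in the 4-library fit and 1.57 in the 12-library fit, and the bars of the 12-library fit are wider for all 10 genes.

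Counting all 10 genes in stimulated cells, 1 (Socs2) was higher and 0 were lower in KO than in WT, where 1.23% of all 10494 tested genes were called, 0.762% higher and 0.467% lower. Without overlap, 5 genes lay higher in KO (Socs2, Cish, Socs3, Stat3 and Stat5a) and 0 lower, against 19.5% of tested genes higher and 22.6% lower. Positive log2 differences were found for 9 of the 10, beside 50% of all tested genes, with a median of 0.43 against 0.00 over all tested genes. For KO against WT, 3 of 10 were positive in young fresh cells, beside 46.8%, and 4 in old fresh cells, beside 50%. Old against young, 9 were positive, beside 51.8%, and stimulated against fresh, 7 were, beside 60.3%. In young fresh cells 0 members were called by edgeR, where 0% of 10680 tested genes were, and 519 genes (4.86%) had an unadjusted p under 0.05, none of them members. DESeq2 called 137 genes there. Socs3, Pim2 and Osm lay lower in KO without overlap, beside 17.3% of tested genes, and 0 members lay higher, beside 14.7%. Among old fresh libraries 0 members were called, where 0% of genes were by edgeR and 105 genes by DESeq2. An unadjusted p under 0.05 was found for 428 genes (4.01%), none of them members. Stat5b lay higher without overlap, against 16.5% of tested genes, and Cish and Stat5a lower, against 16.7%.

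The test of whether the KO difference itself differed between stimulated and fresh young cells called 0 of the 10 genes and 0% of 11548 genes by edgeR, with 577 genes (5%) and 2 members (Socs3 and Osm, both adjusted p = 0.885) at an unadjusted p under 0.05, and 32 genes by DESeq2.

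**Figure D3:**
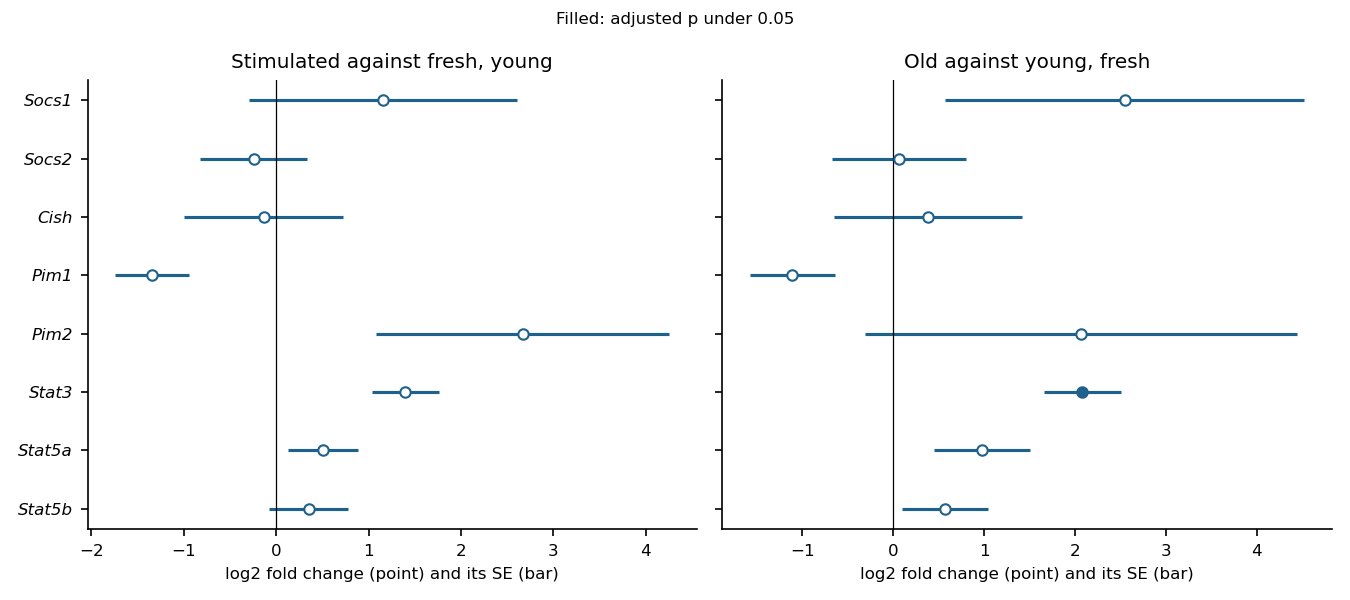
Log2 fold change with SE bars for 8 members, stimulated against fresh young cells (left) and old against young fresh cells (right), filled where the adjusted p was under 0.05. Socs3 and Osm are left out because a group was at 0 counts, and Stat3 at 2.08 in the right panel is the filled point.

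Stimulated against fresh young cells, 0 of the 10 genes were called by edgeR, where 2.81% of 11548 tested genes were, 1.31% higher and 1.51% lower. DESeq2 called 2 members (Stat3 and Pim1), where it called 786 of the 11548 genes. By edgeR 4 members had an unadjusted p under 0.05, where 17.7% of genes did. Stat3 lay higher without overlap, beside 14.6% of genes, and Pim1 lower, beside 5.16%. The split of all called genes depended on scaling, with 46.5% of them higher by TMM and 64.4% by library totals alone. Old against young, 1 member, Stat3, was called, where 2.72% of 10680 genes were, 1.76% of tested genes higher and 0.964% lower. Stat3 and Pim1 had an unadjusted p under 0.05, as did 13.2% of genes. Stat3 and Stat5a lay higher without overlap, beside 4.83% of genes. The share of called genes that were higher was 64.6% by TMM and 49% by library totals alone, which moved the median of all genes by -0.12 (log2), and Stat3 passed under both.

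**Figure D4:**
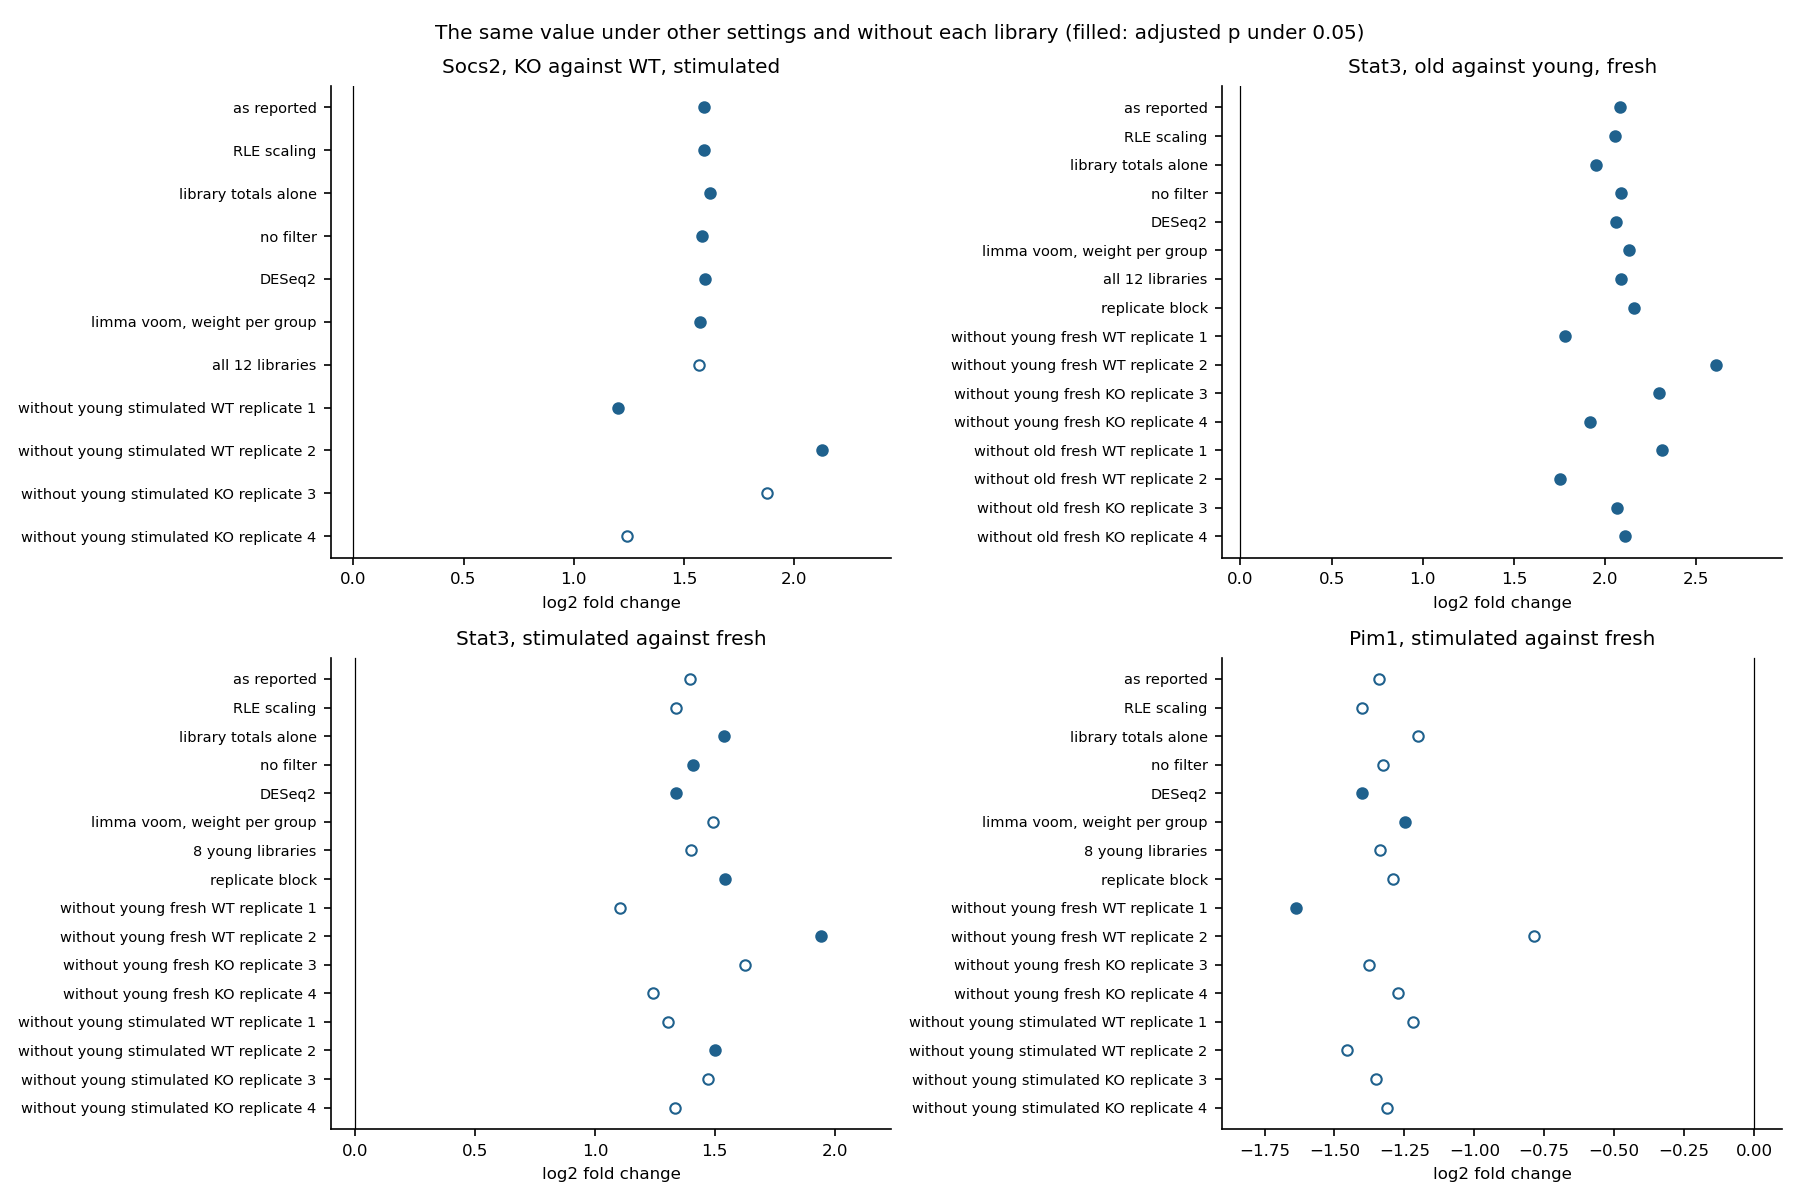
Log2 fold change of Socs2, Stat3 (in 2 comparisons) and Pim1 under each setting and without each library, filled where the adjusted p was under 0.05. Old against young Stat3 is filled throughout, at an adjusted p = 0.0487 by limma voom, and lay between 1.75 and 2.61 without each library. Socs2 is open at 1.88 and 1.24 without either stimulated KO library. Fits without a library tested more genes, so their fill is not like for like with the full fit.

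Other genes of the pathway were listed as 24 receptors, 5 kinases, 4 other STATs, 19 inhibitors, 30 targets and 7 ligands, 89 in all. In stimulated cells 0 of the 75 tested were higher in KO than in WT and 3 were lower, Flt3, Il7r and Irf8, with a median log2 difference of 0.03 over the 75. Over all tested genes 0.762% were higher and 0.467% lower. Flt3, the receptor of a lymphoid and dendritic growth factor, had 61.8 and 46.4 CPM in stimulated KO libraries, against 137 and 240 CPM in stimulated WT libraries. Its log2 fold change was -1.77 ± 0.24 (SE), with an adjusted p = 0.0024 by edgeR. Il7r, the interleukin-7 receptor of lymphoid progenitors, had 2 counts in KO libraries, against 137 in WT libraries, of which 119 came from WT replicate 2. Their ratio was 0.0133 (95% exact interval 0.00159 to 0.0488, counting error only), with an adjusted p = 0.0107. Irf8, a factor of monocyte and dendritic cell development, had 35.6 and 26.8 CPM in KO libraries, against 75.2 and 74.6 CPM in WT libraries, -1.23 ± 0.23 (log2, SE) with an adjusted p = 0.0162. The fit of all 12 libraries called 0 genes in this comparison. These 3 moved beside the lower B cell marker sums given above, whose part was not tested.

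Of the receptors and kinases, Kit and Jak1 had the highest mean tag levels. Kit, the stem cell factor receptor, had 260 and 330 CPM in stimulated KO libraries, against 191 and 212 CPM in stimulated WT libraries. The KO libraries lay above, at 0.58 ± 0.15 (log2, SE), with an adjusted p = 0.0962 (edgeR). Jak1, a kinase shared by many cytokine receptors, had 455 and 397 CPM in stimulated KO libraries, against 417 and 467 CPM in WT libraries, and the groups overlapped.

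Stimulated against fresh, 1 of 78 tested pathway genes was higher and 2 were lower, beside 1.31% higher and 1.51% lower of all tested genes. Flt3 was higher at 2.45 ± 0.49 (log2, SE), adjusted p = 0.0124 by edgeR, and lay between 46.4 and 240 CPM in stimulated libraries, against between 7.53 and 24.6 CPM in fresh ones. Ccnd2, encoding cyclin D2, was lower at -0.78 ± 0.16 (adjusted p = 0.0136), and the receptor Tnfrsf1a was lower at -1.14 ± 0.26 (adjusted p = 0.0295). Old against young, 0 of 72 were higher and 2 were lower, beside 1.76% higher and 0.964% lower of all tested genes. Cbl, a ubiquitin ligase that turns over receptors, was not counted in any of the 4 old fresh libraries, against 242 counts over the young fresh ones, at least 182-fold lower with the floor of 3 counts over the group (adjusted p = 0.013). Ptprc, encoding the phosphatase CD45, had between 67.4 and 111 CPM in old libraries, against between 136 and 255 CPM in young ones, -1.33 ± 0.34 (log2, SE) with an adjusted p = 0.0388. None of the 72 passed between KO and WT in fresh cells of either age.

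**Figure D5:**
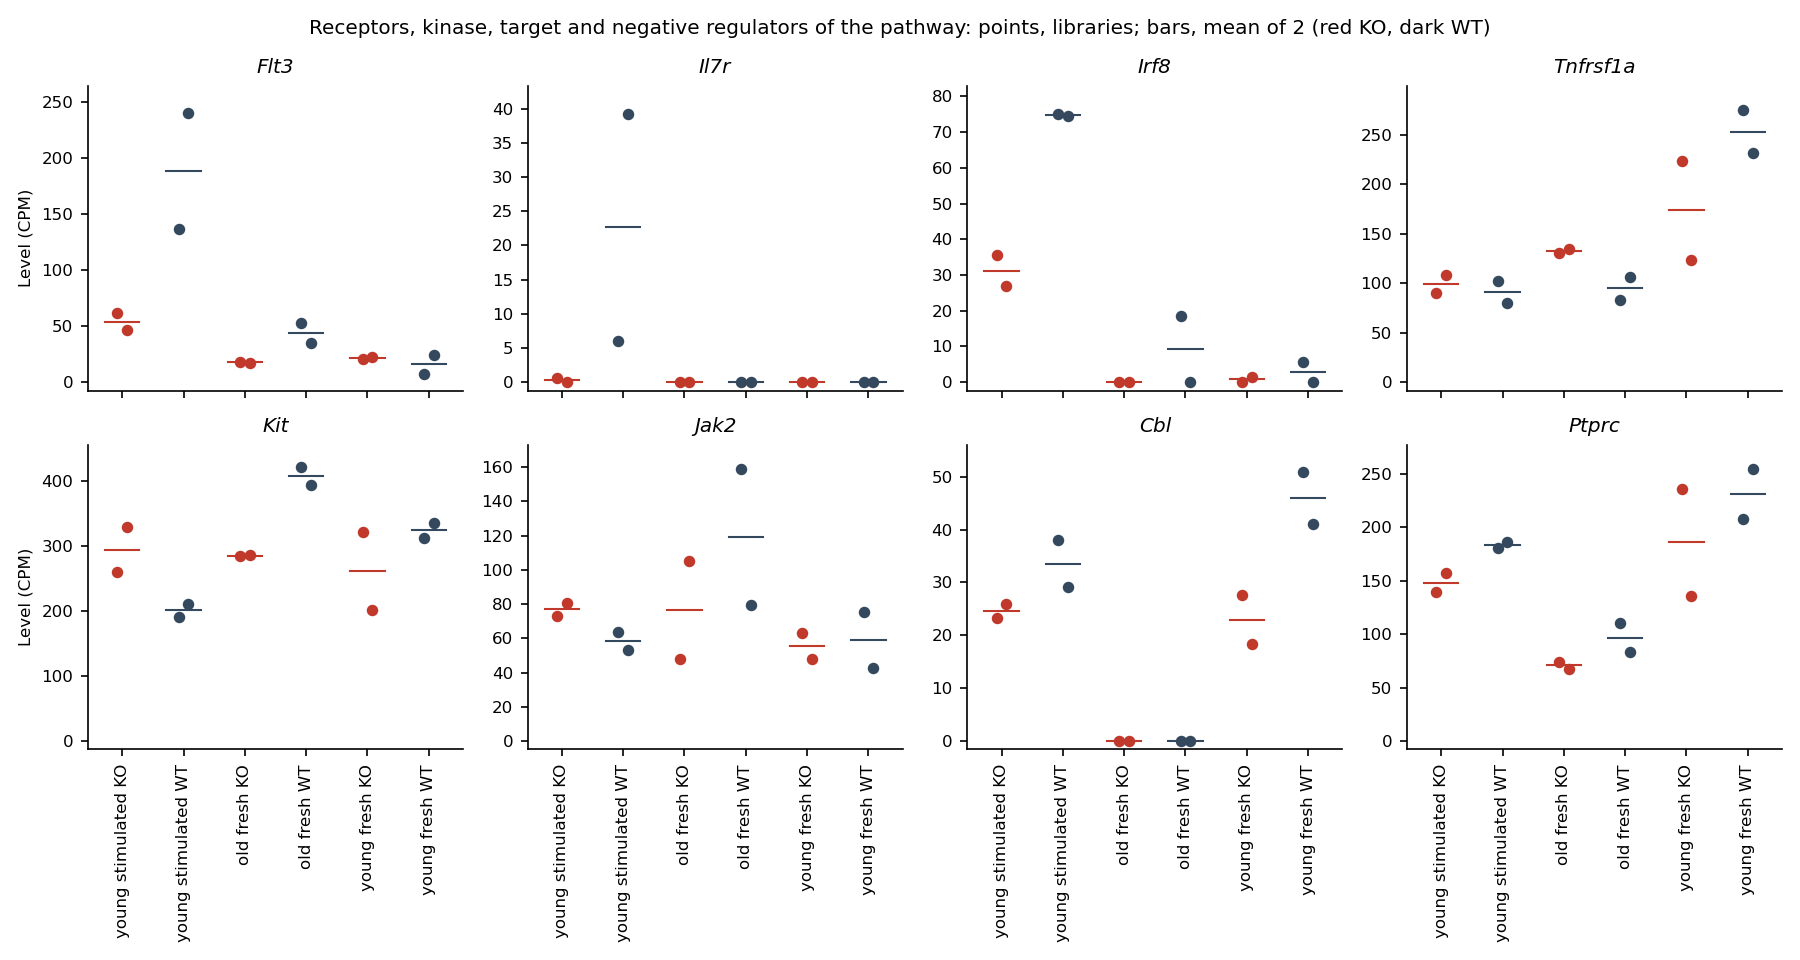
CPM of 8 pathway genes in each library, with points for libraries and bars for the mean of 2 (KO red, WT dark). Flt3 was lower in stimulated KO libraries (61.8 and 46.4 CPM) than in stimulated WT libraries (137 and 240 CPM), and Cbl was at 0 in all 4 old fresh libraries.

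The genes most like Socs2, Cish and Pim1 across the 6 group means were ranked among 6290 genes, as a description with no test. Each r rests on only 6 group means, and the groups differ in depth. Those most like Socs2 included Ap2m1 (Pearson r = 0.857), Inafm1 (0.844), Timp3 (0.823) and Ppic (0.819). Lrrc8a was most like Cish (r = 0.984), followed by Acss2 (0.979), Hoxb4 (0.973), Epb41l4b (0.962) and Casp12 (0.962). Arhgap5 was most like Pim1 (r = 0.992), followed by Smarcc2 (0.989), Gk (0.986), Bmt2 (0.983) and Ebna1bp2 (0.980). No gene exceeded r = 0.95 with Socs2, against 9 with Cish and 32 with Pim1.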

How the data were processed

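The authors deposited unnormalised read counts for each gene symbol of 12 QuantSeq 3′ libraries. Reads were aligned with HISAT2 2.2.1 to mm10 and counted with HTSeq 0.9.1, per the submitters' processing notes, which also name DESeq2 1.34.0. The annotation, strand setting and read filters are not given in the sources used here. Because 3′ tags count transcript ends, levels are not scaled by length. The members, the pathway lists and the tests were chosen with earlier results of these data known.

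Counts were fitted in R 4.3.3 with edgeR 4.0.16 (quasi-likelihood, TMM, genes filtered by filterByExpr at its count minimum, 10, and total minimum, 15), and p-values were adjusted by Benjamini-Hochberg over all genes tested, with a threshold of 0.05. Stimulated and fresh libraries differ in spread, with common dispersions of 0.0206 and 0.0238 in stimulated groups and between 0.240 and 0.296 in fresh groups. The KO and WT stimulated libraries were therefore fitted as 4 libraries (10494 genes), the fresh comparisons as 8 (10680 genes), and stimulated against fresh and the interaction as 12 (11548 genes). SE is the log2 fold change divided by the root of the F statistic. CPM used TMM sizes of the 12 libraries. A group at 0 was bounded with 3 counts over the group, and ratios of low counts have exact 95% intervals. The fitting steps were tested on simulated data.

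All 10 members are named. Pathway genes are named when they passed the test, or for the highest level among receptors and kinases, and the 5 genes most like Socs2, Cish and Pim1 by Pearson r (mean of at least 20 CPM, prior count of 2) are named as a description. Jak2, drawn in a figure only, was chosen after its values were seen. A gene that met the naming rule is not reported here. Alternatives were RLE scaling, library totals alone, no filter, DESeq2 1.42.0, limma 3.58.1 voom with a weight per group, all 12 or the 8 young libraries, a replicate block, and each library left out. Leaving a library out left 1 in its group, which loosened the filter, so those fits tested more genes. Their calls are not like for like with the full fit.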

Additional observations from a re-analysis of the deposited data

Results flagged for a closer look

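A result was flagged where both libraries of 1 group lay beyond both of another, and the order was opposite in another state or genotype. This held for 4 results. Members whose signs differed with overlapping libraries were not flagged, and the share of all genes that meet the rule was not computed. Socs2 was higher in stimulated than in fresh young cells in KO and lower in WT, and the test of the difference gave an adjusted p = 0.903 (edgeR). Socs3 was higher in KO than in WT in stimulated cells and lower in KO in fresh young cells, with an adjusted p = 0.885 for the difference (edgeR). Cish was lower in KO in old fresh cells and higher in KO in stimulated cells, a difference of -1.59 in the log2 ratio of group means, which was not tested. The KO difference of Stat5a turned in the same way, at -0.89, which was not tested either.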

How the results depend on the processing

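Of the 12 member results with an unadjusted p under 0.05, none reversed under another setting or without a library (80 values each). Of the other 48, 7 reversed under another setting (14 of 310 values) and 26 without a library (42 of 280), none past the threshold. Genes called for stimulated against fresh cells numbered 325, against 351 with library totals, 521 with no filter, 786 by DESeq2 and 712 by voom. Members called there were 0, against 1 with library totals and with no filter (Stat3, higher), 1 by voom (Pim1, lower), and 2 by DESeq2. Same-numbered libraries did not deviate together between states (r of replicate differences -0.0132 to 0.0118 across genes). Fresh replicates vary widely, so a low r cannot decide whether the numbers pair the samples. With the replicate block the members called were 1 (Stat3, 1.54, adjusted p = 0.00161, edgeR). KO against WT in stimulated cells called 129 genes, against 340 with no filter (2 members), 227 by voom, and 0 with all 12 libraries (0 members). In young fresh cells the count was 0, against 10 with no filter, 137 by DESeq2 and 3 with all 12 libraries. In old fresh cells it was 0, against 18, 105 and 5 under those settings and 2 by voom. Old against young called 291, against 450 with no filter, 917 by DESeq2, 577 with all 12 libraries and 438 with the replicate block. The interaction called 0, against 10 with no filter and 32 by DESeq2. Leaving out a library gave 160 to 423 genes for stimulated against fresh (160, 194, 195 and 203 without stimulated KO replicate 3, KO replicate 4, WT replicate 2 and WT replicate 1) and 0 to 1 members. It gave 24 to 296 for KO against WT in stimulated cells (24 without KO replicate 4, 48 without KO replicate 3, 296 without WT replicate 1) and 0 to 2 members. It gave 10 to 65 in young fresh cells, 7 to 41 in old fresh cells, 287 to 551 for old against young (551 without young KO replicate 4, 493 without young KO replicate 3, 442 without old WT replicate 2) and 0 to 7 for the interaction. Stat3 between KO and WT in stimulated cells passed with no filter (0.58, adjusted p = 0.0406, edgeR). The cause of these shifts was not tested. Low counts limit Socs1, Socs3, Pim2 and Osm in young fresh cells, where groups hold 0 to 43 counts. The deeper old fresh libraries also had 0 counts of Socs3 and Osm in WT replicate 1 and of Pim2 in KO replicate 4. The part of depth in these values was not tested.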
